A study of Ovis aries with 17 samples.

Results

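The genes described here are those whose signal in sheep B lymphocytes and plasmacytoid dendritic cells (pDC) lay above the signal in every other mononuclear phagocyte sample of the same series. They were chosen by their measured levels: a gene had to be well above background on all 7 B and pDC arrays, and its lowest level there had to be at least 2-fold above its highest level on the other 10 arrays. Of 14550 gene identifiers on the array, 9354 were well above background on all 7 arrays and 120 of these met the gap, which is 1.28%. *CD3D*, 1 of 5 genes left out by name, was among the 120, so that 119 members remain. *CD3E*, *GNLY*, *TCF4* and *CR2* were also left out by name, but none of them met the gap. Since the members were selected on the contrast of B and pDC with the other subsets, all values of that contrast are a description and carry no test.

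The series holds 17 one-colour arrays, each of a custom sheep design with probes of 60 bases and each hybridised with RNA of 1 of 6 subsets from control sheep. B lymphocytes (B, 4 arrays) and CD14-sorted macrophages (MP, 3 arrays) came from spleen. From low-density blood cells, pDC (3 arrays) were sorted as CD45RB-positive cells negative for the B cell marker, CD11b, CD11c, CD8 and the TCR1 gamma-delta receptor, XCR1-negative dendritic cells (labelled DC XCR1-, called cDC2 here, 3 arrays) as CADM1-low CD172-high cells, and XCR1-positive dendritic cells (DC XCR1+, called cDC1 here, 1 array) as CADM1-high CD172-low cells, both from CD11c-positive cells without B cell marker, CD11b, TCR1 or CD45RB. MoDC (3 arrays) came from independent cultures of bone marrow cells with GM-CSF, so comparisons with MoDC also set sorted cells against cultured ones. Sorts that yielded under 25 ng of RNA were pooled over animals without a record of which arrays these were, so p-values measure the spread between arrays, which are not always single animals. Of the MP arrays, MP 3 stood apart in the genes described here. In sorted samples, fewer cells of a type and less RNA per cell cannot be told apart. The authors hold it likely that their sheep pDC include residual B cells that escaped the exclusion. They also hold it probable that pDC contaminate the sheep cDC2. The part of such cells in the levels given here was not tested.

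B lymphocytes recognise antigen through immunoglobulin, whose variable regions are assembled from gene segments in each B cell, and they mature into antibody-secreting plasma cells. pDC are dendritic cells known for releasing type I interferon when they sense viral nucleic acid, and they share several transcription factors and sensors with B cells, among them *TCF4*, *IRF8* and *TLR9*. The variable regions of immunoglobulin and T cell receptor chains end in a conserved pattern: the third framework closes with tyrosine and cysteine, and after the variable loop the last framework, encoded by the joining segment, opens with phenylalanine and glycine in light and T cell receptor chains or with tryptophan and glycine in immunoglobulin heavy chains.

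Levels are given on a log2 scale on which 0 is the 75th percentile of the array's intensities after background correction. The 75th percentile ranged from 193.6 to 687.8 units of brightness and the share of spots well above background from 61.1% to 80.2%. The number of arrays limits the precision. Only 3.02% of the probes carry a gene symbol, and 1 of the 119 members has one, *MLN*. The other members are given by probe name, and their place in the genome was not analysed here.

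The probes of 18 members shared short stretches of sequence with each other. A search for words of 12 bases found in the probes of at least 4 members gave 36 words, which occurred, read in the direction the probes are printed, in 30 of the 15060 probes of the array (0.199%), 18 of them members (15.1% of the members). Since the words were taken from the members' own probes, these shares only describe them. On the reverse strand, 2 probes held a word. The words fell into 6 sets of overlapping letters. The set around CGGCAGCGGGAC was in 9 members and in 12 probes of the array, the set around TACTGTGCATCT in 8 members and 9 probes, the set around AGGACGAGGCCG in 5 members and 5 probes, and the set around CCAGGACTCCTG in 4 members and 12 probes. Probes are shown from each kind, because the members that carry them had fitted differences between B and pDC of 1 sign. Capitals mark bases covered by a shared word. The last probe carries such words but is not a member.

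A_70_P026396: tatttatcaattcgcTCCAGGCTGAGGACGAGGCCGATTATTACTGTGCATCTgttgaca
A_70_P024446: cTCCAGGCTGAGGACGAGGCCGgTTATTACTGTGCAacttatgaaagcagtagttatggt
A_70_P026151: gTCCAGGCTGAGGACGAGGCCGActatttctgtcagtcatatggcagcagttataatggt
A_70_P026341: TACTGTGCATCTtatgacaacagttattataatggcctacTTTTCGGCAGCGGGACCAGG
A_70_P026331: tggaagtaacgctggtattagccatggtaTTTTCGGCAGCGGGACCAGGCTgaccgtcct
A_70_P026411: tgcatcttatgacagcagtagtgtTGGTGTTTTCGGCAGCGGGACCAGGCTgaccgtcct
A_70_P041216: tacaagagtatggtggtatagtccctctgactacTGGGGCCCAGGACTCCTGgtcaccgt
A_70_P041161: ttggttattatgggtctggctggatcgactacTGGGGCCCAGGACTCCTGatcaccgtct
A_70_P041166: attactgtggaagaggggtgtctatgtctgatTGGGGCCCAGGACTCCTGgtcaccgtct
A_70_P026381: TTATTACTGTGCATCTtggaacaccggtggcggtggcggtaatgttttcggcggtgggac

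All 18 of these member probes had a reading frame without a stop codon that spelled tyrosine, tyrosine or phenylalanine and cysteine, or phenylalanine or tryptophan followed by glycine, any residue and glycine. The same residue patterns stood in an open frame of 174 of the 15060 probes (1.16%) and of 26 of the 119 members (21.8%). A match is a description of the letters and names no gene. Members that share a word share sequence, and their values are not independent of each other. In all, 23 members shared a run of 18 bases with another member, and 5 of these 23 had no shared word.

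Of the 12 probes that carry a shared word and are not members, 6 were not well above background on all 7 B and pDC arrays. The gap of the other 6 ran from -1.89 to 0.60 on the log2 scale, and was above 0 in 5 of them. The mean level was higher in pDC than in B in 11 of the 12, some of them below background. Of the 11318 genes tested on the array, 5305 had a fitted level higher in pDC. The exception among the 12 probes, A_70_P026381, shown last above, was dim in both B (mean -5.64) and pDC (mean -5.89). It stood higher in cDC2 (mean -3.20) and on the cDC1 array (-2.97).

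Across the 119 members, the gap ranged from 1.01 to 4.56 on the log2 scale with a median of 1.80. It reached 4-fold in 49 members and 8-fold in 6. The median gap was 2.06 in the 18 members with a shared word and 1.71 in the other 101. The lowest of the 7 B and pDC arrays was a B array in 79 members and a pDC array in 40.

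**Figure D1:**
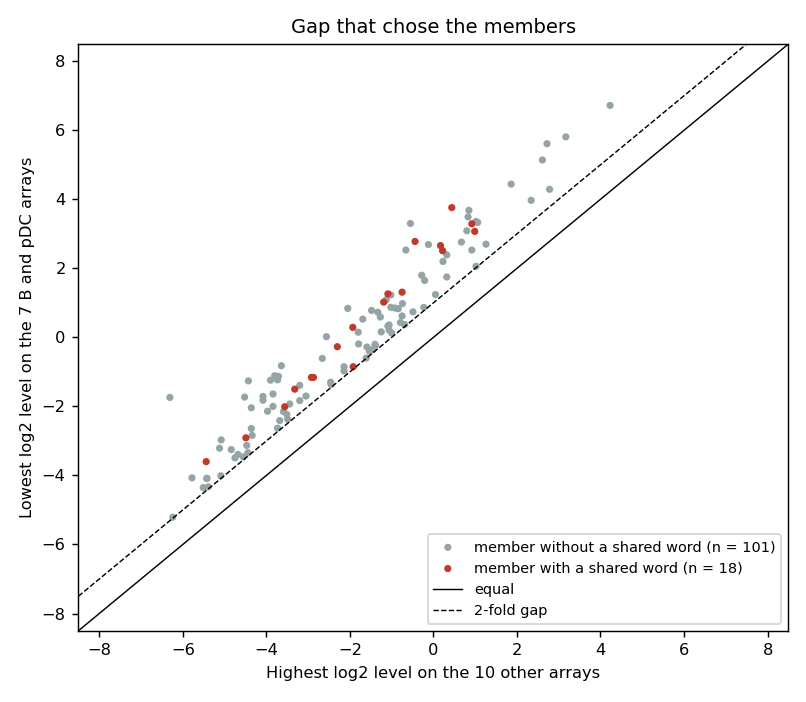
Lowest log2 level on the 7 B and pDC arrays (vertical axis) against the highest log2 level on the 10 other arrays (horizontal axis), 1 point per member, with lines for equal levels and for the 2-fold gap. All 119 points lie above the 2-fold line because the rule put them there, and members with a shared word are spread over the range of levels.

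The widest gap was that of A_70_P019866, at 4.56. Its levels were -0.74, -0.42, -0.42 and -1.14 in B and -0.97, -0.78 and -1.74 in pDC. On the 10 other arrays it was not well above background on any, with levels of -8.68 to -6.31, so that only bounds can be given. B lay at least 38.7-fold above cDC2, at least 32.7-fold above MoDC and at least 17.9-fold above MP, and pDC at least 27.7-fold, 23.4-fold and 12.8-fold above them. B and pDC overlapped, with a difference of 0.48 ± 0.43 (SE) on the log2 scale (limma adjusted p = 0.596).

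BL_OCA_F000643 had the next gap, 3.85, and was well above background on 9 of the 10 other arrays. It stood at 3.97, 4.10, 3.54 and 3.31 in B and at 3.35, 3.59 and 3.30 in pDC, a span of less than 1 log2 unit over 7 arrays. It stood at -0.55, -0.82 and -0.75 in cDC2, at -2.67 in cDC1, at -2.28, -3.1 and -2.36 in MoDC and at -4.58, -3.83 and -2.01 in MP, so that the highest value outside B and pDC was that of cDC2 1. B was thus 21.7-fold above cDC2. For MP, of which MP 1 was not well above background, the measured levels put B 147-fold higher, and 245-fold without MP 3, a value that rests in part on the undetected level of MP 1. A_70_P040836, with a gap of 3.17, had the same flat course over B (-1.13, -0.80, -1.26 and -0.67) and pDC (-0.60, -0.68 and -0.70), and among the other subsets it was well above background in cDC2 alone, at -5.07, -4.78 and -4.43.

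A_70_P026396, a probe with shared words, had a gap of 3.32 and a different course. B arrays were at 4.2, 4.59, 3.76 and 3.98 and pDC arrays at 8.10, 6.64 and 6.25, so that all pDC arrays were above all B arrays. It stood at 0.24 in cDC1, at -0.63, -0.87 and -0.37 in cDC2, at -3.76, -1.87 and 0.44 in MP and at -6.95, -8.41 and -7.54 in MoDC. The probe was not well above background on the MoDC arrays, which puts B at least 918-fold and pDC at least 6700-fold above MoDC. A_70_P024446 (gap 3.22) and A_70_P026421 (gap 3.19, with no shared word) followed the same order of subsets. For both, all pDC arrays lay above all B arrays, MoDC was not well above background, and MP 3 was the highest of the other arrays.

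The remaining members among the 10 widest gaps differed in how B stood to pDC. A_70_P062061 (gap 2.89) was at 7.75, 8.07, 8.29 and 7.87 in B and at 5.66, 6.40 and 5.61 in pDC, with no overlap, but was not called (limma adjusted p = 0.287). BL_OTH_F000986 (gap 2.84) overlapped between B (4.82 to 5.80) and pDC (3.68 to 5.11). A_70_P064711 (gap 2.82) stood at -0.82 to 0.57 in B and at 1.28 to 1.54 in pDC and was not called either (adjusted p = 0.0759), and A_70_P054926 (gap 2.89) is described with the differences between B and pDC.

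*MLN*, known for encoding motilin, a peptide hormone of the gut, was the member with a symbol. Its levels were -0.91, -0.88, -0.99 and -1.71 in B and -1.07, -0.44 and -1.45 in pDC. The other arrays lay between -5.96 and -4.08, with cDC1 highest, and no MP array was well above background. B exceeded MP at least 12.7-fold and pDC exceeded MP at least 14-fold, while B and pDC differed by -0.14 ± 0.34 (SE, limma adjusted p = 0.891).

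At the threshold, A_70_P066821 (gap 1.01), A_70_P012986 (1.02) and BL_OTH_F000698 (1.05) were the members just inside. A_70_P026446 and A_70_P007671 (both 0.98) and BL_OTH_F000410 (0.96) fell just outside. A_70_P012986 was well above background on none of the 10 other arrays, and its B levels (-5.21 to -4.50) were close to the limit of detection, so that no fold can be given for B over MP or cDC1. BL_OTH_F000698 was measured on all 17 arrays, at 2.06 to 2.95 in B, 2.32 to 2.82 in pDC and 1.02 on the cDC1 array, which was the highest of the others.

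**Figure D2:**
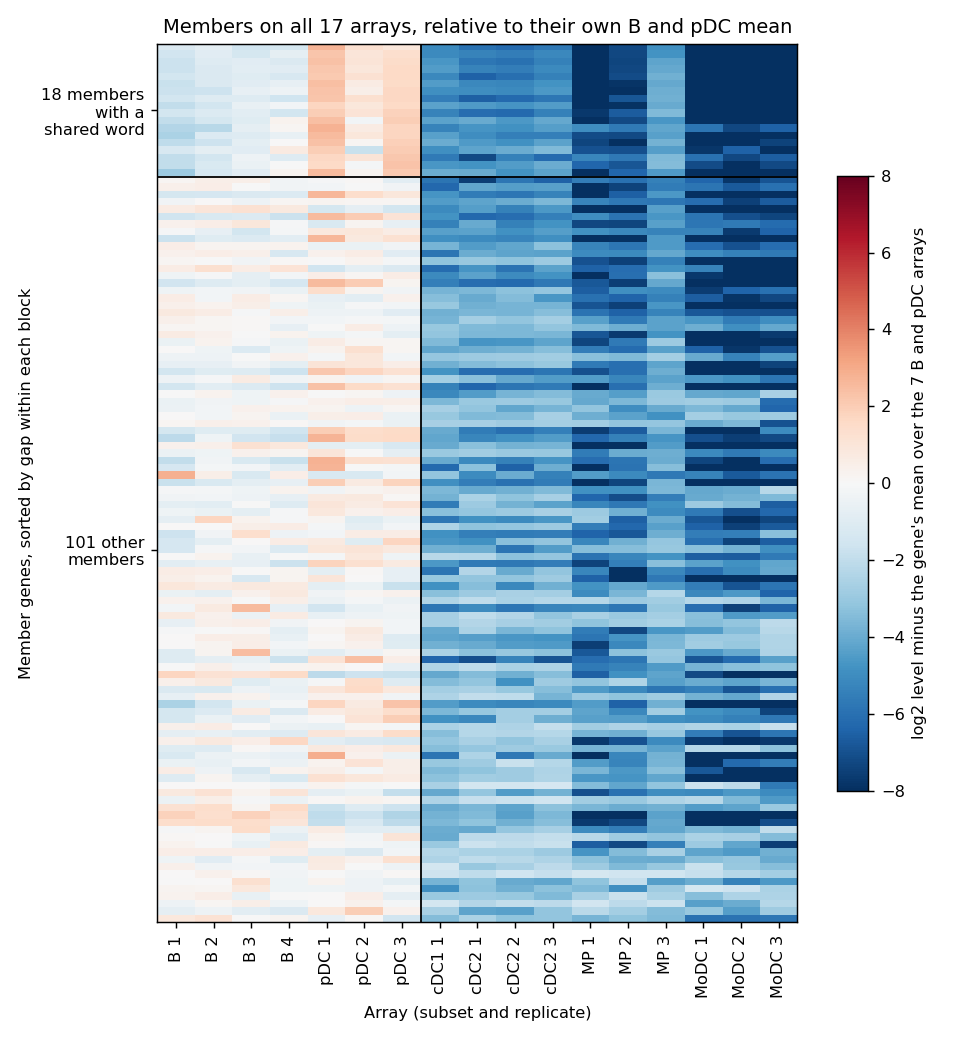
Heat map of the 119 members (rows, 18 with a shared word above the horizontal line and 101 others below it) on the 17 arrays (columns), each as the log2 level minus the gene's own mean over the 7 B and pDC arrays, with the colour scale ending at -8 and 8. The upper block is bluer in B than in pDC and reaches the end of the scale in MoDC for most of its members, while the lower block is mixed across B and pDC, with members near 0, higher in pDC or higher in B.

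Applied to 16 of the 17 arrays, the rule chose 119 to 136 genes, which included the 119 members each time, as the rule entails. It chose 136 without the cDC1 array and 129 without MP 3.

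The difference between B and pDC was not used by the rule and was tested over 11318 genes, which included 118 of the 119 members. All B arrays came from spleen and all pDC arrays from low-density blood cells, so subset and tissue cannot be told apart in this difference. In all, 30 members were called at an adjusted p under 0.05 and at least 2-fold, 23 of them higher in pDC and 7 higher in B. Over all genes, 9.22% were called, 4.42% higher in pDC and 4.81% higher in B, so the members' share of 25.4% was above the background. With slide as a block in the fit to all 17 arrays, 30 members were called, 24 of them among the first 30 and 10 with a shared word, against 10.3% of all genes. With the replicate number as a block in a fit without the cDC1 and cDC2 arrays, in which number and slide coincide, 18 members were called (15.3%), against 6.53% of all genes.

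Of the 18 members with a shared word, all had a fitted difference below 0, that is, higher in pDC, with a median of -2.76 and a range of -3.04 to -1.28, while the median of all genes was 0.05. In this set 8 passed the call. In 15 of the 18 no pDC array overlapped with a B array, and over all genes 23.6% did not overlap. Since these probes share letters, their agreement is not that of 18 independent genes. Of the 100 other members tested, 22 passed the call, 15 higher in pDC and 7 higher in B, around a median of -0.15. Of the 23 calls higher in pDC, 15 were thus of members without a word. Lack of a word does not make these a separate class of sequence, since the residue patterns stood in 26 members and 18 had a word. How many of the 15 hold such a pattern was not counted. The number of calls higher in pDC without a word was 13 when a word had to be in 3 members and 19 when it had to be in 5. No test of members with a word against the others was made. B and pDC did not overlap in 49 of these 100.

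**Figure D3:**
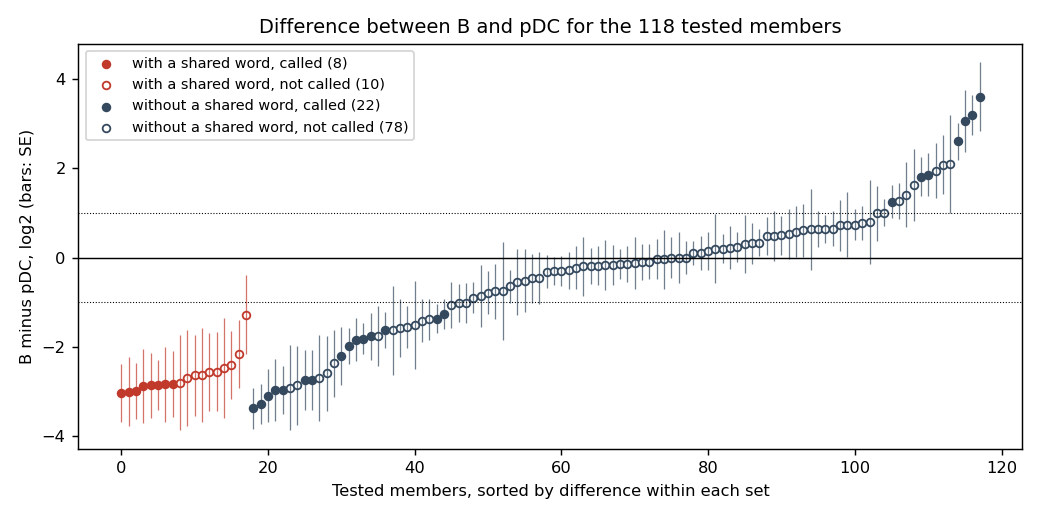
Fitted log2 difference of B minus pDC for the 118 tested members, sorted within the 18 with a shared word (red) and the 100 others (dark), with bars for the SE, filled symbols for called members and dotted lines at 2-fold. The red points lie between -3.04 and -1.28 and the dark points between -3.38 and 3.61.

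Within slides, where a B and a pDC array of the same replicate number lay side by side, the median difference of the members with a word was -3.89 on slide 1, -2.04 on slide 2 and -2.62 on slide 3. The pDC array was the higher on all 3 slides for 17 of these 18 members, and for 2473 of the 11318 genes tested. The median of the members without a word was -0.29, -0.09 and 0.06. The pDC 1 array held the highest values of the word-carrying members (median 2.26 above their own B and pDC mean, against 0.89 on pDC 2 and 1.68 on pDC 3). Without pDC 1, the median of these members was -2.35. In that fit 14 members in all (11.9%, against 5.68% of all genes) and 2 of those with a word were called. The count over all members was 18 without pDC 3 (15.3%, against 7% of all genes) and 19 without B 1 (16.1%, against 7.34%). It was 47 without MP 3 (39.8%, against 8.97%), an array that enters this comparison through the shared estimate of the spread. Of the members with a word, 4 were called without pDC 3 or B 1, 5 without B 4 or with the replicate block, 12 without MP 1 and 17 without MP 3.

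Members higher in pDC were led by A_70_P006871, at 5.58, 4.28 and 4.43 in pDC against 0.73, 2.48, 1.31 and 1.01 in B, a difference of -3.38 ± 0.46 (SE, 10.4-fold, limma adjusted p = 0.000324). A_70_P054926 stood at 5.09, 4.61 and 3.69 in pDC and at 0.99, 1.36, 1.52 and 0.84 in B, a difference of -3.29 ± 0.44 (9.77-fold, adjusted p = 0.000263). Neither probe holds a shared word, and no array of the 17 failed the background flag for either. A_70_P024441, also without a word, fell by 3.1 ± 0.60 from pDC to B (adjusted p = 0.0043).

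A_70_P026151 and A_70_P041216, shown above, were the word-carrying members with the largest calls. A_70_P026151 was at 3.56, 1.94 and 2.73 in pDC and at -1.50, -0.08, -0.02 and 0.42 in B, a difference of -3.04 ± 0.66 (8.21-fold, limma adjusted p = 0.00872). Without pDC 1 its adjusted p was 0.0567. A_70_P041216 was at 4.88, 3.92 and 4.30 in pDC and at 1.20, 1.59, 1.60 and 1.02 in B, a difference of -3.01 ± 0.78 (8.07-fold, adjusted p = 0.024). With the replicate block its adjusted p was 0.101, and that of A_70_P026396, which passed at -2.87 ± 0.73 and 0.022, was 0.123. The call of A_70_P041216 was also lost without B 1, B 4, pDC 1 or pDC 3 (adjusted p = 0.0548, 0.0601, 0.108 and 0.0669), and that of A_70_P026396 with slide as a block and without B 4 or pDC 1 (0.0587, 0.0521 and 0.129). For both probes no pDC array overlapped with a B array.

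Members higher in B were led by A_70_P065261, at 3.89, 3.34, 3.84 and 3.23 in B and at -0.01, 0.29 and -0.40 in pDC, a difference of 3.61 ± 0.77 (SE, 12.2-fold, limma adjusted p = 0.00745). A_70_P057351 differed by 3.20 ± 0.44 (9.19-fold, adjusted p = 0.000352) and A_70_P022786 by 3.06 ± 0.69 (8.32-fold, adjusted p = 0.0108). These members had narrow gaps of 1.14, 1.35 and 1.13, set by a pDC array and a cDC2 array in each. BL_OTH_F001102, with B at -1.32, -1.13, -2.35 and -0.93 and pDC at -4.35, -3.56 and -4.22, differed by 2.61 ± 0.41 (adjusted p = 0.00096) and was well above background on no other array. Its difference was 1.11 (adjusted p = 0.0484) with normexp and 1.73 from the series table. A_70_P014436 differed by 1.86 ± 0.48 (adjusted p = 0.0243). Its call was lost in 8 of 23 alternatives, with an adjusted p of 0.0836 with the replicate block, 0.0535 with slide as a block, 0.0681 with quantile normalization and 0.0504 to 0.12 without B 1, B 2, B 4, pDC 1 or pDC 3. In these 5 members, all B arrays were above all pDC arrays.

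**Figure D4:**
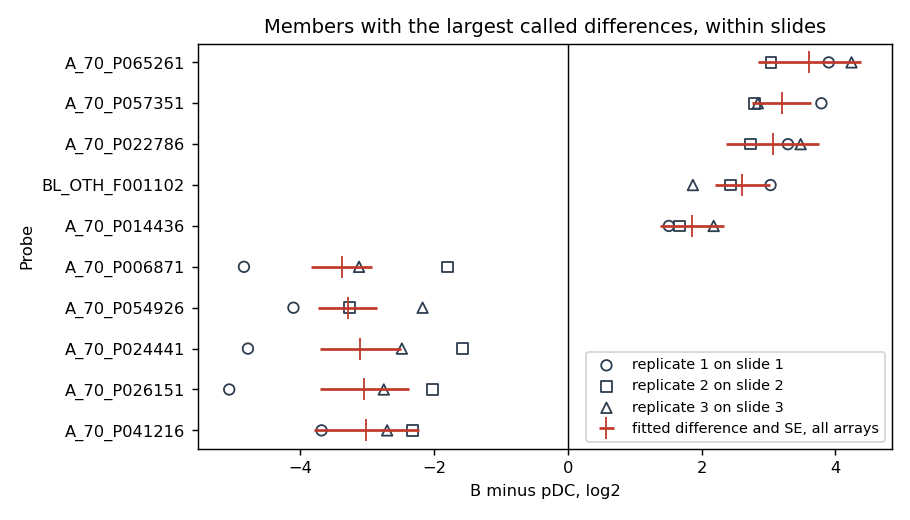
Difference of B minus pDC (log2) within slides 1, 2 and 3 (symbols) and the fitted difference with its SE (red) for the 5 members called with the largest difference in each direction. The 3 slides gave the same sign for each of the 10 probes, and slide 1 was the farthest from 0 for the 5 probes higher in pDC.

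Some markers of other cells moved with this comparison. Of 27 listed B cell genes only 1 was measured, *CR2*, a complement receptor of B cells. It was at 4.2 to 4.25 in B and at -3.16 to -1.60 in pDC, opposite in direction to the word-carrying members. Of the 24 genes listed for T and NK cells 5 were measured (*CD3D*, *CD3E*, *CD247*, *CD28* and *GNLY*), and the log2 of their summed signal was 2.86 to 3.25 in B and 5.48 to 5.62 in pDC. *CD28* was well above background on 1 of the 7 B and pDC arrays. The sum hides that the genes differed over the pDC arrays: *CD3E* stood at 4.64, 3.12 and 4.74 and *GNLY* at 2.11, 4.97 and 3.08. *CD3D*, a subunit of the T cell receptor complex, met the rule itself with a gap of 2.21. Its difference between B and pDC, -0.96 ± 0.44 (SE), was not called (limma adjusted p = 0.21). *HBB*, the beta chain of haemoglobin, was at -6.57 to -4.63 in B and -2.82 to -0.21 in pDC. The part of these cells in the differences between B and pDC was not tested.

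The sorted subsets could be checked against few markers. The log2 of the summed signal of 4 measured monocyte and macrophage genes was 7.85 to 8.17 in MP, 6.22 to 6.79 in MoDC, 5.66 to 5.90 in cDC2, 5.05 in cDC1, 0.84 to 2.07 in B and 0.63 to 1.5 in pDC. That of 5 measured genes of conventional dendritic cells was 6.56 in cDC1, 2.97 to 3.28 in cDC2, 2.08 to 2.76 in MP, 1.83 to 2.65 in MoDC, -0.18 to 1.07 in B and 0.69 to 1.57 in pDC. For the 4 measured pDC genes it was 1.68 to 3.12 in pDC, which overlapped with B (1.32 to 2.09), cDC2 (2.59 to 2.66) and MP (1.47 to 1.77). Genes known to be shared by B cells and pDC were hardly represented on the array by symbol. Of 23 listed, *TCF4*, *IRF8* and *TLR9* were measured, and none was a member. The gap of *TCF4* was -0.28, because cDC2 (0.53 to 0.83) reached into the range of B (0.55 to 1.09) and pDC (0.71 to 1.82). The gap of *IRF8* was -3.90, with its highest level on the cDC1 array (6.44), and *TLR9* was well above background on 4 of the 7 B and pDC arrays. *CCR9*, a chemokine receptor of pDC, was at -1.03, -2.46 and -0.30 in pDC, and at -7.59 to -5.78 in B, where 1 of 4 arrays was well above background. No listed gene of B cell receptor signalling, MHC class II presentation or the secretory pathway was measured under a symbol.

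Among the subsets on the low side, the members were detected unevenly. Mean levels were highest in cDC2 in 54 members (45.4%, against 18.5% of the 9354 genes well above background) and on the single cDC1 array in 45 (37.8%, against 31.8%). Which subset was lowest was not measured for the members below background in several of them. In MoDC 57 members were well above background on no array and 37 on all 3. For cDC2 the flag was set on all 3 arrays in 95 members. Per array, 44 to 59 of the 119 members were well above background in MoDC, where 68.0% to 72.5% of all spots were. In cDC2 it was 95 to 109 members, beside 72.2% to 80.2% of all spots. Of the members with a word, 17 were well above background on no MoDC array and 16 on all cDC2 arrays.

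**Figure D5:**
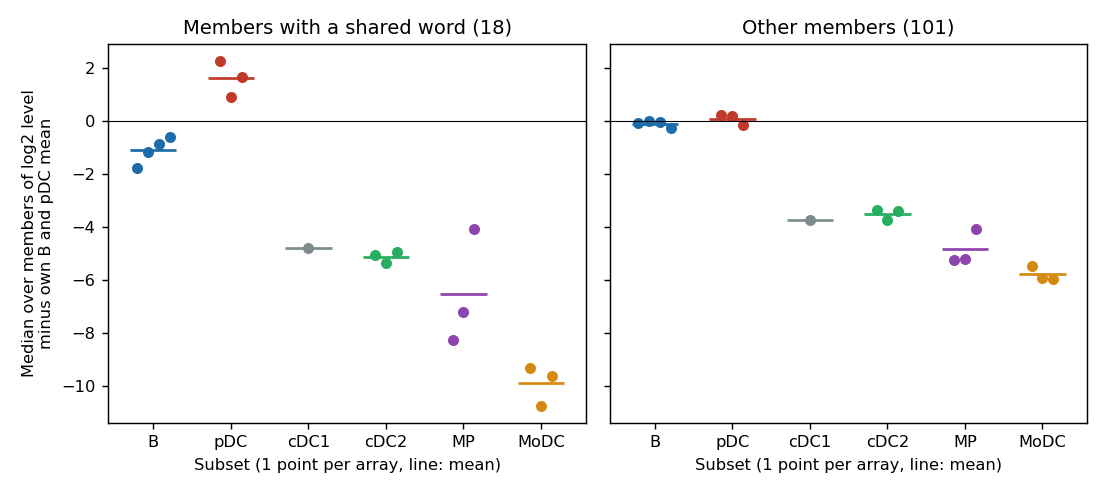
Median over members of the log2 level minus the gene's own mean over the 7 B and pDC arrays, 1 point per array and a line at the mean of each subset, for the 18 members with a shared word (left) and the 101 others (right). On the left the pDC points lie at 0.89 to 2.26, the B points at -1.76 to -0.62 and the MoDC points, where 17 of the 18 members were not well above background, at -10.74 to -9.33; on the right the B and pDC points lie between -0.26 and 0.22.

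Between MP and MoDC 69 of the 118 members tested were called (58.5%), 60 higher in MP and 9 higher in MoDC. This share is descriptive, since the rule used levels of both subsets. Of these 69, 25 were well above background on 1 or more arrays of both subsets, 34 in MP only and 3 in MoDC only, and 7 calls higher in MP were of members well above background in neither, so that these 7 compare levels below detection. Over the 54 members well above background on 1 or more arrays of both subsets, 25 were called (46.3%), 19 higher in MP and 6 higher in MoDC, with a median of 0.77, against 24.3% and a median of 0.20 over the 10120 such genes of all. Over all genes 25.9% were called, 14.4% higher in MP and 11.4% higher in MoDC. The median difference of MP minus MoDC was 1.52 in the members and 0.22 in all genes, and 0.59 in the members with each undetected subset at its bound. With normexp it was 0.67 in the members and 0.31 in all genes, and 0.57 and 0.03 from the series table. Of the members with a word, 14 were called, all higher in MP and none of them well above background in MoDC, so that these calls set a signal against undetected levels and only bounds hold, at least 2-fold in 10 of the 14. Their fitted median of 3.55 was 1.57 with bounds, 1.19 with normexp and 1.72 from the series table. MP exceeded MoDC at least 15.8-fold for A_70_P026396 and at least 29.3-fold for A_70_P062061, or 7.43-fold and 8.64-fold without MP 3. The limma adjusted p of 8.9e-05 and 0.00285 for these probes belong to the fitted difference from the MoDC levels below detection, not to the bounds. Without MoDC 2, 44 members were called (37.3%, against 22.4% of all genes). Without MP 3, 49 members were called (41.5%, against 21.3%), 9 of them with a word. The fitted median of the members with a word was then 2.36. With normexp background correction 30 were called (25.4%, against 17.4% of all genes) and 3 of the 69 turned their sign.

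The MP arrays did not lie together in this comparison. The median of the word-carrying members, relative to their own B and pDC mean, was -8.28 on MP 1, -7.22 on MP 2 and -4.07 on MP 3. Of these 18 members 1 was well above background on MP 1, 10 on MP 2 and 17 on MP 3, against 0, 1 and 0 on the MoDC arrays of the same slides. On slide 1 both arrays were thus below detection for nearly all of them and give no difference, and on slides 2 and 3 the median of MP minus MoDC, 4.06 and 5.69, was taken against levels below detection. *CR2* was likewise higher on MP 3 (-1.26) than on MP 1 (-6.17) and MP 2 (-4.65), and the log2 of the summed signal of the T and NK cell genes ran from 0.13 to 1.35 over the MP arrays. Whether these cells had a part in the members' levels in MP was not tested.

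Against cDC2, MP was lower in all 31 of the members called (26.3%), 5 of which were not well above background in MP. Here too the rule used levels of both subsets, so the share is descriptive. Over the 90 members well above background on 1 or more arrays of both subsets 26 were called (28.9%), against 10.6% of such genes. Over all genes 11.2% were called, 6.24% higher in cDC2 and 5.01% higher in MP. The median difference of MP minus cDC2 was -1.03 in the members and -0.09 in all genes, but -0.02 and 0.11 with normexp, and -0.54 and -0.01 from the series table. None of the 18 members with a word was called by limma, although 8 had an unadjusted p under 0.05 (44.4%, against 27.2% of all genes), and their median was -1.79, or -0.26 with normexp, -0.93 from the series table and -0.70 with slide as a block. Without MP 3, 50 members were called (42.4%, against 10.2% of all genes), 11 of them with a word. Without MP 1, MP 2 or cDC2 3 the count over all members was 20, 17 and 20. These were 16.9%, 14.4% and 16.9%, against 7.15%, 6.47% and 5.68% of all genes. The median of the members with a word was -3.04 without MP 3, -0.59 without MP 1 and -1.11 without MP 2. With normexp 13 were called (11%, against 7.26% of all genes), and 5 of the 31 turned their sign. The cDC2 arrays shared a slide that held no MP array, and with slide as a block 1 member was called (0.847%), against 0.866% of all genes. Slide and subset cannot be fully told apart here, nor can tissue and subset, since MP came from spleen and cDC2 from blood.

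MoDC was lower than cDC2 in 75 of the 77 members called (65.3%) and higher in 2, again a descriptive share because the rule used levels of both subsets. In 44 of the 77 MoDC was not well above background, and the bound reached 2-fold in 37 of them. Over the 61 members well above background on 1 or more arrays of both subsets 33 were called (54.1%), against 30.9% of such genes. Over all genes 33.5% were called, 20.3% higher in cDC2 and 13.2% higher in MoDC. The median difference of MoDC minus cDC2 was -2.39 in the members, -4.64 in those with a word and -0.32 in all genes. Of the 18 members with a word 17 were called, and in 16 of these MoDC was not well above background, so that only bounds hold. With undetected subsets at their bound the median was -1.71 in the members and -2.99 in those with a word. With normexp it was -0.71 and -1.17, and from the series table -1.19 and -2.42. For A_70_P062061, cDC2 lay at least 249-fold above MoDC, and the limma adjusted p of 7.82e-05 again belongs to the fitted difference. With slide as a block 35 members, 4 of them with a word, were called (29.7%), against 8.33% of all genes.

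Spread between replicates was larger in the members with a word. The median SD was 0.66 over the B arrays and 0.84 over the pDC arrays in these 18 members, and 0.39 and 0.44 in the other 101. Over the 9354 genes well above background it was 0.40 and 0.37.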

How the data were processed

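Per the labels and file headers, the authors sorted or cultured the cells, amplified and Cy3-labelled the RNA and read the arrays with Agilent Feature Extraction (version 10.7.3.1 for 12 arrays, 10.10.1.1 for 5). The deposited scanner files give background-corrected intensity per spot, with flags. The deposited series table, on a log2 scale (column medians 6.505 to 6.545), was an alternative; its normalization is not given in the sources used here. Of 15744 spots, 15208 were not controls, and none was saturated.

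The members and lists were chosen with earlier results of these data known, and the word search after the probe sequences and values had been seen. Levels are log2 intensity minus the array's 75th percentile, averaged over spots of a probe, with the probe of highest sum per gene. For tests, outlier-flagged spots were left out, which removed 1 member, and genes were kept where, in 1 or more subsets, each array had over 50% of their spots well above background. limma 3.58.1 in R 4.3.3 fitted subset means to all 17 arrays (eBayes, Benjamini-Hochberg over 11318 genes). It was tested on simulated data. Same-numbered B and pDC arrays, which shared a slide, deviated together (r = 0.283 to 0.327 across genes), as did MP and MoDC (r = 0.144 to 0.247), so the numbers were treated as pairing the arrays in a replicate block. An "at least" fold sets a subset with no array well above background at each array's lowest signal well above background, or at the probe's own level if that is higher. Named were the member with a symbol, the 10 widest gaps, the 5 largest calls between B and pDC in each direction, and the 3 genes on either side of the threshold. Symbols came from the files (140 probes) or a RefSeq gene table (315 probes). Alternatives were quantile normalization, normexp with an offset of 50, the series table, no filter, slide and replicate blocks, other gaps and leaving out each array.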

Additional observations from a re-analysis of the deposited data

Results flagged for a closer look

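Of 25 values tested over the 4 B arrays, 1 had an array far from the others: *MLN* stood at -1.71 on B 4 and between -0.99 and -0.88 on the other 3, a separation of 0.860 of the whole range. Chance gives this in about 1 of 20 such groups. Over all members, 6 had an array that far from the other B arrays.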

How the results depend on the processing

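The rule gave 42 members with normexp background correction, 40 of them among the 119, and 99 from the series table, 95 of them among the 119. With quantile normalization it gave 119, of which 111 were shared. Without a gap it gave 367, with a 4-fold gap 49 and with a 1.5-fold gap 176. Leaving out each array gave 119 to 136. Of the members, 24 held a shared word when a word had to be in 3 members and 14 when it had to be in 5, thresholds added after seeing the data. The count of members called between B and pDC was 46 with normexp, 51 from the series table, 18 with the replicate block and 14 to 47 over the arrays left out. Between MP and MoDC it was 30 with normexp (25.4%, against 17.4% of all genes) and 40 from the series table (33.9%, against 21.9%). It was 64 with the replicate block (54.2%, against 25.6%) and 44 to 72 over the arrays left out. Between MP and cDC2 it was 13 with normexp (11%, against 7.26% of all genes) and 1 with slide as a block (0.847%, against 0.866%). It was 17 to 50 over the arrays left out. Between MoDC and cDC2 it was 38 with normexp (32.2%, against 21.6% of all genes) and 35 with slide as a block (29.7%, against 8.33%). It was 71 to 78 over the arrays left out. All genes called between B and pDC numbered 1044, and 655 with normexp, 739 with the replicate block and 643 to 1464 over the arrays left out. No member called between B and pDC turned its sign in any alternative. The difference of *MLN* (A_70_P051191) between B and pDC, -0.14, was 0.06 with slide as a block, with the replicate block and without B 4, and ran from -0.37 to 0.13 over the arrays left out. That of BL_OTH_F000698, -0.10, was 0.02 without B 1 and 0.03 without pDC 2, and ran from -0.27 to 0.03. Besides the probes named in the report with the replicate block, A_70_P066821 and A_70_P012986 lost their call with it (adjusted p = 0.0595 and 0.11), and it changed no other call of a named member. Over all 23 alternatives these calls were lost in 16 and 8 (differences of 0.84 to 1.65 and -2.2 to -0.68). The cause of these changes was not tested. Signals near background limit the values in MoDC, where 57 members had only a bound.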
